A study of Danio rerio with 6 samples.

Results

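Voltage-gated sodium and calcium channels are described here across their pore-forming and accessory subunit genes, compared between zebrafish larvae given 4-octyl itaconate and control larvae. The genes were taken as every row whose symbol begins with scn and a digit, or with cacna, cacnb or cacng. This gave 65 of the 24470 gene IDs in the table, under 61 symbols. The match was in lower case and so left out the rows written CACNA2D1 and CACNA2D3. Of the 65 gene IDs, 58 averaged at least 10 normalized counts across the 6 libraries and were tested, and 7 did not.

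All larvae belonged to the hair cell reporter line Tg(Brn3C:mGFP), whose hair cells carry green fluorescent protein in their membranes. In the treated group, 3 libraries came from larvae exposed to 4-octyl itaconate at 2.5 µM, a form of the immune metabolite itaconate that enters cells, over 48 h from 3 days post fertilization (dpf). The control group held 3 libraries, and larvae of both groups were sampled at 5 dpf. The tissue label is larvae, and the study asks about itaconate in the development of neuromasts, the hair cell organs of the lateral line. The sources used here do not give the vehicle, or how many larvae or clutches went into a library. The p-values therefore reflect the spread among these libraries alone, and that spread may be technical.

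A voltage-gated sodium channel is a large alpha subunit that forms the pore and opens for a short time on depolarization, which produces the upstroke of the action potential, and it is accompanied by small single-pass beta subunits. A voltage-gated calcium channel likewise has a pore-forming alpha1 subunit, joined by an intracellular beta subunit and an extracellular alpha2delta subunit that bring it to the membrane. The paralogous alpha1 genes divide the work: L-type channels trigger muscle contraction and serve the ribbon synapses of photoreceptors and hair cells, P/Q-, N- and R-type channels trigger transmitter release at most other synapses, and low-voltage T-type channels support pacemaking and burst firing. Of the gamma subunits, some belong to the muscle calcium channel, while most are carried as auxiliary subunits by AMPA-type glutamate receptors and are called TARPs. The teleost genome duplication left zebrafish with a pair of genes, ending in a and b, for many of these subunits. Members were put in muscle, neuron, retina, hair cell, and heart or several-tissue classes from what is known of these genes, mostly in mammals.

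The libraries held 14763897 to 23507208 reads, recovered from the normalized counts. Log2 values of the tested genes correlated across genes at 0.928 to 0.972 among treated libraries, at 0.971 to 0.974 among control libraries and at 0.672 to 0.731 between the groups. Leaving out treated replicate 1 moved the fold of cacng5a and 4 retina gene IDs by over 1.5 times, and leaving out treated replicate 2 did so for cacna1ab, cacna1ia, cacna2d3, cacng7a, cacng8a and 1 ID of cacna1db. The values without a library are given where it decides a size. Of 20352 genes tested with limma, 35.0% were higher and 34.3% lower in treated larvae at an adjusted p of 0.05, so that most of the transcriptome differed between the groups. The groups did not overlap in 37.4% of genes with the treated libraries higher and in 36.8% with them lower.

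The channel genes divided by class, and the classes were chosen with earlier results of these data known. Most muscle subunits were higher in treated larvae, and most neuron and retina subunits and the hair cell subunit were lower. Of the 58 tested channel gene IDs, 10 rose (17.2%, against 35.0% of all tested genes) and 37 fell (63.8%, against 34.3%), and 11 did not pass the threshold. Their median log2 fold change, treated minus control on the log2(normalized count + 1) scale, was -1.70, beside 0.01 over all tested genes. The groups did not overlap in 10 gene IDs with treated libraries higher (17.2%, against 37.4%) and in 39 with them lower (67.2%, against 36.8%). In bulk RNA of larvae, fewer cells of a type and less RNA per cell cannot be told apart.

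Of 8 tested muscle gene IDs, 7 rose (87.5%, against 35.0% of all tested genes) and none fell, with a median of 2.28. Of 27 tested neuron genes, 21 fell (77.8%, against 34.3%) and none rose, with a median of -2.54. Of 5 retina gene IDs, 4 fell (80.0%, against 34.3% of all tested genes) and none rose, with a median of -2.55. Among these IDs, 2 belong to the same gene, cacna2d4a. The hair cell gene fell by 2.89. Most of the 17 tested gene IDs of heart or of several tissues fell, with a median of -1.52. Of these, 11 were lower (64.7%, against 34.3% of all tested genes) and 3 higher (17.6%, against 35.0%). Several IDs of cacna1db are counted in this class. One of these, ENSDARG00000075917, was not called and has the name cfap74 in the reference table of gene names. By edgeR and by DESeq2 on the recovered reads, too, no muscle gene was lower, no neuron gene higher and no retina gene higher. At an unadjusted limma p of 0.05 these counts were 0, 1 and 0.

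**Figure D1:**
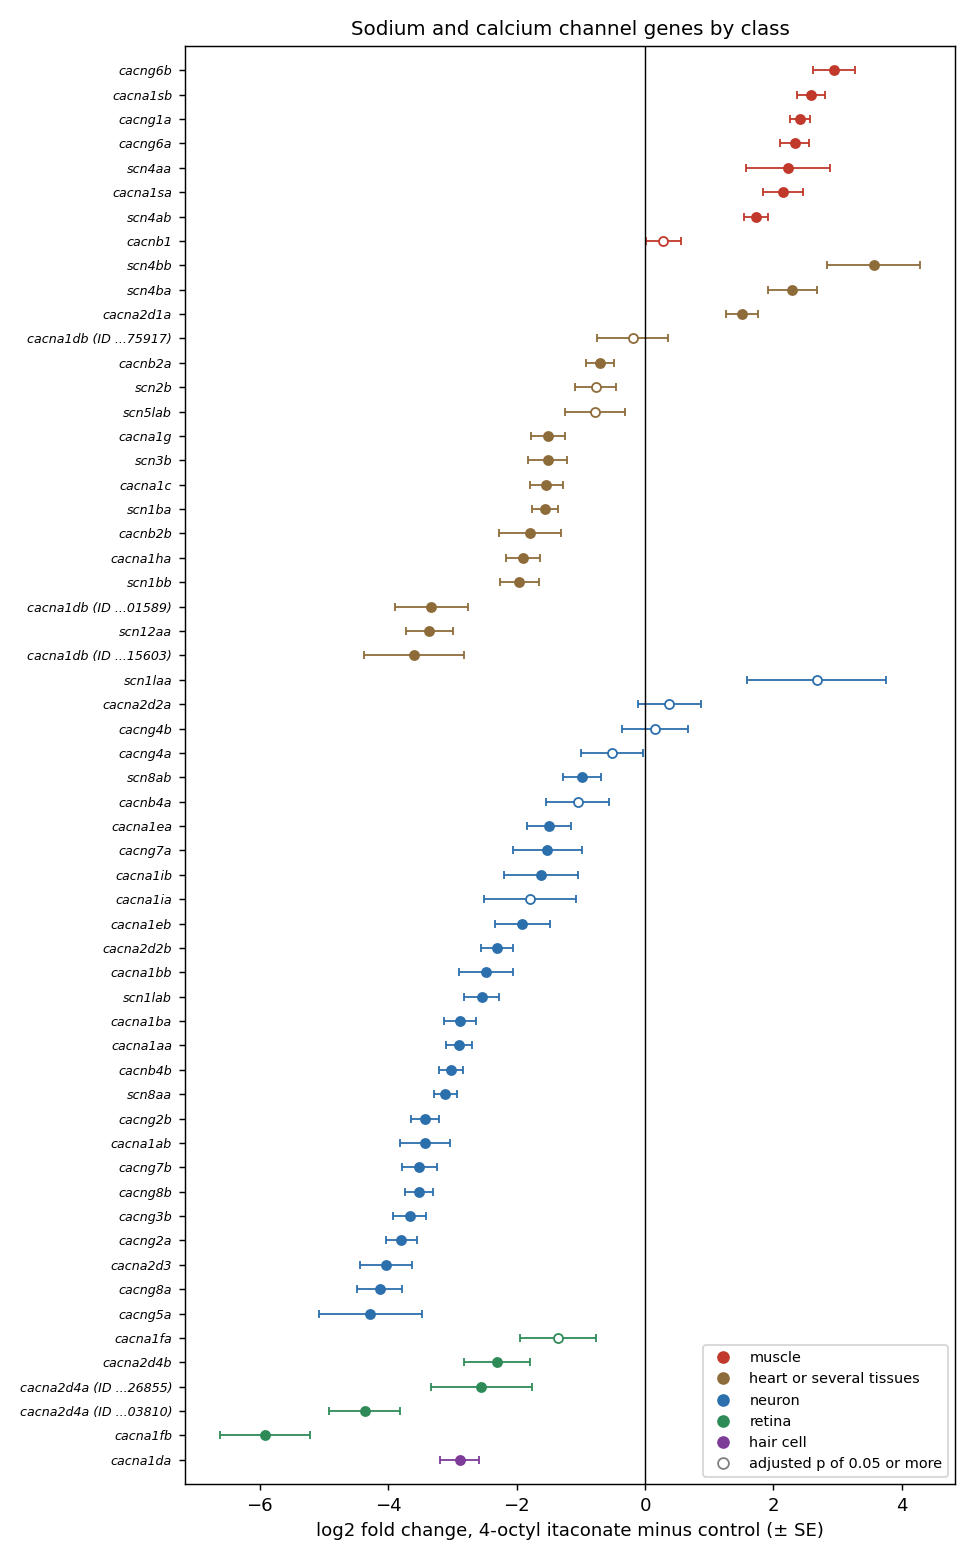
Log2 fold change (treated minus control, on the log2(normalized count + 1) scale) of each of the 58 tested channel gene IDs, arranged and coloured by class. Bars show the standard error, filled points a limma adjusted p under 0.05 and open points the rest (3 libraries a group). The muscle class lies to the right of 0, with 7 of 8 gene IDs filled, and 21 of 27 neuron genes are filled and lie to the left.

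The shift shows in the make-up of channel transcripts within a library, as shares of the members' summed normalized counts, which are not adjusted for transcript length. Muscle subunits made up 49.1%, 48.3% and 57.9% of that sum in the treated libraries, against 3.21%, 3.53% and 4.82% in the control libraries. Neuron subunits made up 24.9%, 30.6% and 21.6% in the treated libraries, against 70.7%, 69.0% and 75.4% in the control libraries. The groups did not overlap for either class. Retina subunits averaged 2.24% ± 1.75 in treated libraries, against 9.47% ± 2.52 in controls, and the hair cell gene 0.851% ± 0.256 in treated libraries, against 2.05% ± 0.416 in controls (SD, n = 3 each). The class of heart or several tissues held 19.4% ± 1.19 in treated and 12.9% ± 1.26 in control libraries. Of all reads, however, this class took less in treated libraries, 0.00521% ± 0.000774, than in control libraries, 0.0114% ± 0.00190. Its larger share of the sum thus goes with a smaller sum, not with a higher level. All members together took 0.0268% ± 0.00390 of the reads of treated libraries and 0.0881% ± 0.00650 of those of control libraries.

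**Figure D2:**
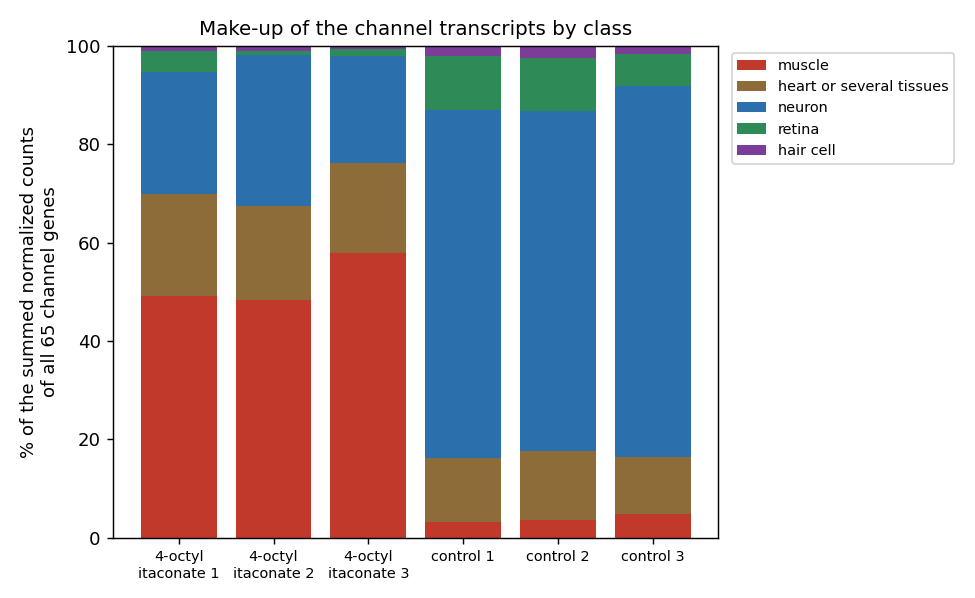
Share of the summed normalized counts of all channel members taken by each class in each library, in percent (stacked bars, treated libraries left of control libraries). Muscle subunits hold 48.3% to 57.9% in the treated libraries and 3.21% to 4.82% in the control libraries.

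Among sodium channel alpha subunits, both genes of skeletal muscle rose and 4 of the other 6 fell. With only 8 alpha genes, these counts are described gene by gene, beside 35.0% of all tested genes higher and 34.3% lower. The skeletal muscle channel gene scn4ab (ENSDARG00000034588) had 518, 533 and 514 normalized counts in treated larvae, against 135, 146 and 197 in control larvae. All treated libraries lay above all control libraries, a 3.27-fold rise (log2 fold change 1.72, SE 0.19, limma adjusted p = 5.33e-05). Its paralog scn4aa (ENSDARG00000098738) had 16.8, 30.4 and 20.05 in treated and 10.0, 3.33 and 1.41 in control larvae, and the groups did not overlap here either (2.22, SE 0.65, adjusted p = 0.0138). The rise of scn4aa was 4.55-fold with all libraries and 9.45-fold without control replicate 1, and without treated replicate 2 its adjusted p was 0.0537.

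The neuronal genes moved the other way, and by unequal amounts. The gene scn8aa (ENSDARG00000005775), for the channel of axon initial segments and nodes of Ranvier, had 197, 281 and 192 normalized counts in treated larvae, against 2067, 1770.0 and 1887 in control larvae. It was 8.54-fold lower (log2 fold change -3.11, SE 0.18, limma adjusted p = 2.37e-06), with a wide gap between the groups. Its paralog scn8ab had 56.0, 107 and 63.0 in treated and 132, 172 and 129.7 in control larvae and was 1.92-fold lower (-0.98, SE 0.29, adjusted p = 0.0145). The groups of scn8ab did not overlap, but without control replicate 2 its adjusted p was 0.0611.

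The gene scn1lab is the zebrafish counterpart of a human epilepsy gene, and larvae that lack it have seizures. It had 84.1, 102 and 52.5 normalized counts in treated larvae, against 538, 393 and 438 in control larvae, which was 5.73-fold lower (log2 fold change -2.54, SE 0.27, limma adjusted p = 4.43e-05). Its paralog scn1laa had 15.7, 5.62 and 27.7 in treated and 0, 0 and 11.3 in control larvae. These groups overlapped and scn1laa did not pass the threshold (log2 fold change 2.67, SE 1.09, limma adjusted p = 0.0532). It passed without treated replicate 2 (adjusted p = 0.0445) or without control replicate 3 (adjusted p = 0.00641), and it was the single neuron gene with an unadjusted p under 0.05 in the upward direction.

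The remaining alpha subunit genes, scn12aa and scn5lab, come from the branch that in mammals holds the heart sodium channel and its relatives of sensory neurons. The gene scn12aa had 8.97, 10.1 and 9.55 normalized counts in treated larvae, against 143, 123 and 69.1 in control larvae. It was 11.7-fold lower (log2 fold change -3.36, SE 0.36, limma adjusted p = 5.16e-05), the largest fall among the sodium channel genes. For scn5lab the values were 17.9, 8.999 and 10.5 in treated and 15.04, 30.0 and 21.1 in control larvae, and the groups overlapped (-0.78, SE 0.46, adjusted p = 0.162).

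**Figure D3:**
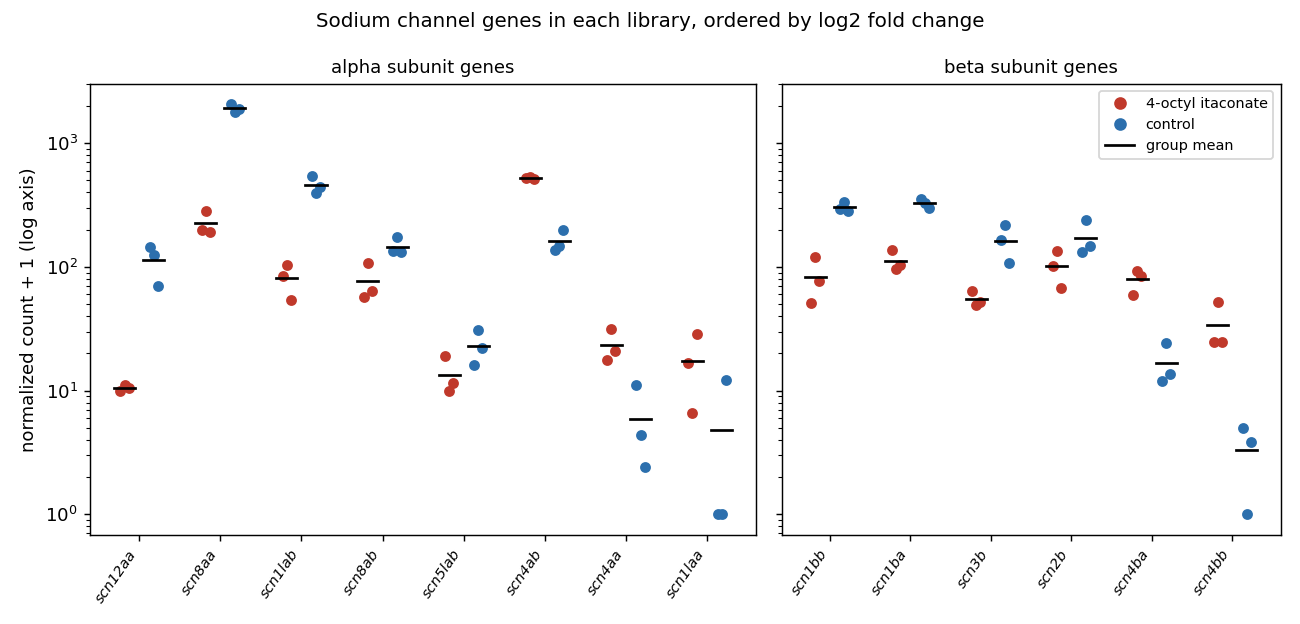
Normalized counts of the sodium channel alpha and beta subunit genes in each library, on a log axis of normalized count + 1, with treated libraries (3 points) left of control libraries (3 points) and a line at each group mean. The points of scn4aa, scn4ab, scn4ba and scn4bb lie higher in treated larvae, and those of scn8aa, scn1lab and scn12aa lower.

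The beta subunits regulate the gating and surface level of the alpha subunit and are also adhesion proteins. Of the 6 tested, scn4ba and scn4bb rose, 3 others fell and 1 was not called. Of all tested genes, 35.0% rose and 34.3% fell, so counts this small are no result about beta subunits as a group. In neurons, scn4b is known for resurgent current. The gene scn4ba had 58.3, 92.2 and 84.0 normalized counts in treated larvae, against 11.03, 23.3 and 12.7 in control larvae, and was 4.98-fold higher (log2 fold change 2.29, SE 0.38, limma adjusted p = 0.000669). Its paralog scn4bb had 23.5, 50.6 and 23.9 in treated and 4.01, 0 and 2.82 in control larvae. The rise of scn4bb was 14.4-fold, and 23.2-fold without control replicate 1, from few reads in the control libraries (log2 fold change 3.56, SE 0.73, adjusted p = 0.00215).

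The widely expressed beta subunit genes scn1ba and scn1bb moved in the opposite direction to scn4ba and scn4bb. The gene scn1ba had 137, 95.6 and 102 in treated larvae, against 355, 327 and 299 in control larvae (log2 fold change -1.56, SE 0.20, limma adjusted p = 0.000156). The gene scn1bb had 50.4, 119 and 76.4 in treated larvae, against 292, 337 and 282 in control larvae (-1.96, SE 0.30, adjusted p = 0.000423). For both, every treated library lay below every control library. The gene scn3b was 3.00-fold lower (-1.52, SE 0.30, adjusted p = 0.00176), and scn2b overlapped between the groups and did not pass the threshold (-0.77, SE 0.32, adjusted p = 0.0594). It did pass without treated replicate 2 (adjusted p = 0.0295) and under quantile normalization, the replicate block or array weights (adjusted p = 0.0383, 0.0281 and 0.0237, in that order).

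Genes for proteins that bind or anchor sodium channels mostly fell, with a median of -1.44. Of 31 tested, 23 were lower (74.2%, against 34.3% of all tested genes), 3 higher (9.68%, against 35.0%) and 5 not called. The 3 with the smallest p among the falls were ank2b, an ankyrin (log2 fold change -3.92, limma adjusted p = 1.28e-06), calm1b, a calmodulin (-2.51, adjusted p = 1.39e-06), and nfasca, a neurofascin of the axon initial segment (-3.31, adjusted p = 2.37e-06). The 3 that rose were the spectrin gene sptbn1 (1.72, adjusted p = 0.000118), 1 of the gene IDs named ank3b (1.24, adjusted p = 0.00706) and nedd4l (0.71, adjusted p = 0.00793), which encodes a ubiquitin ligase that acts on sodium channels. The other gene ID named ank3b, for the ankyrin that gathers sodium channels at the initial segment, fell (-2.33, adjusted p = 2.51e-05).

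The calcium channel of skeletal muscle is the voltage sensor of excitation-contraction coupling. Its alpha1 genes and tested gamma genes rose together, while its beta gene did not pass the threshold. The alpha2delta gene cacna2d1a, used in skeletal muscle, heart and neurons, also rose and is described with the heart channel (log2 fold change 1.51, limma adjusted p = 0.000649). The alpha1 gene cacna1sb (ENSDARG00000042552) had 809, 971 and 1027 normalized counts in treated larvae, against 146, 123 and 206 in control larvae, and was 5.90-fold higher (log2 fold change 2.58, SE 0.22, limma adjusted p = 1.18e-05). Its paralog cacna1sa (ENSDARG00000029457) had 122, 108 and 134 in treated and 35.1, 17.8 and 29.6 in control larvae, 4.41-fold higher (2.15, SE 0.31, adjusted p = 0.000304). In both genes the groups lay far apart relative to their spread.

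Among the gamma subunits, cacng1a encodes the subunit known from the purified muscle channel, and cacng6a and cacng6b encode a relative of it. The values of cacng1a were 809, 804 and 799.9 normalized counts in treated larvae, against 137, 146 and 168 in control larvae, 5.36-fold higher (log2 fold change 2.42, SE 0.16, limma adjusted p = 3.37e-06). Treated libraries hardly differed from each other for this gene. The values of cacng6a were 239, 326 and 367 in treated larvae, against 58.2, 64.4 and 57.8 in control larvae (2.33, SE 0.22, adjusted p = 2.59e-05). Those of cacng6b were 95.3, 155 and 189 in treated larvae, against 16.0, 16.7 and 19.7 in control larvae, 8.38-fold higher (2.95, SE 0.33, adjusted p = 5.7e-05), the largest rise in the muscle class. The gene cacng1b had 2.24, 0 and 0 in treated and 2.01, 4.44 and 2.82 in control larvae and was below the filter.

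The beta subunit gene cacnb1, needed for the muscle channel to reach the membrane and couple to the ryanodine receptor, had 94.2, 137 and 109 normalized counts in treated larvae, against 77.2, 78.9 and 127 in control larvae. The groups overlapped (log2 fold change 0.28, SE 0.28, limma adjusted p = 0.377). The within-library log2 ratio of cacnb1 to cacna1sb, a comparison chosen after its values were seen, was -3.04 ± 0.21 in treated and -0.75 ± 0.15 in control larvae (SD, n = 3 each), a difference of -2.29. The groups did not overlap, and the exact two-sided permutation p was 0.1, the smallest that 3 against 3 libraries allow.

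Most genes on the list of excitation-contraction coupling genes rose with the muscle channel, with a median of 2.35. This list also holds acetylcholine receptor genes of the nerve-muscle synapse, musk, rapsn, chloride channel genes and dmd. Its counts are therefore not of the coupling machinery alone. Of 31 tested, 28 rose (90.3%, against 35.0% of all tested genes), 2 fell (6.45%, against 34.3%) and 1 was not called. The rises with the smallest p were casq2, a calsequestrin that stores calcium (log2 fold change 3.09, limma adjusted p = 1.28e-06), atp2a1, the calcium pump of the sarcoplasmic reticulum (3.67, adjusted p = 1.59e-06), and srl, sarcalumenin (2.57, adjusted p = 1.82e-06). The falls were asph (-0.66, adjusted p = 0.00734), whose locus also encodes junctin, and dmd, dystrophin (-0.85, adjusted p = 0.0121). All 23 matched rows of the skeletal muscle marker list also rose (100%, against 35.0% of all tested genes). Among them, atp2a1, casq1a and casq1b stand on both lists. The muscle markers together took 11.9% ± 0.488 of the reads of treated libraries and 1.69% ± 0.0214 of those of control libraries (SD, n = 3 each), and none was at 0 in a whole group. The part of muscle RNA content in the rise of the muscle channel genes was not tested.

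Most alpha1 genes of the neuron class, which hold the presynaptic channels, fell, with a median of -2.19. Of 8 tested, 7 fell (87.5%, against 34.3% of all tested genes) and 1 was not called. The P/Q-type gene cacna1aa had 128, 139 and 91.6 normalized counts in treated larvae, against 984, 774 and 916 in control larvae, 7.45-fold lower (log2 fold change -2.90, SE 0.20, limma adjusted p = 5.09e-06). Its paralog cacna1ab fell 9.84-fold, and 15.1-fold without treated replicate 2. The N-type genes cacna1ba and cacna1bb fell 7.54-fold and 6.001-fold, and the R-type genes cacna1ea and cacna1eb fell 2.83-fold and 3.63-fold. P/Q- and N-type channels are the main triggers of release at fast synapses, and R-type channels have a smaller share in it. Of the neuronal T-type genes, cacna1ib fell (log2 fold change -1.62, adjusted p = 0.0317) and cacna1ia did not pass the threshold (-1.78, adjusted p = 0.0506), although its groups did not overlap. The call of cacna1ib was lost without treated replicate 1 or 3 or control replicate 1 or 2 (adjusted p = 0.0601, 0.0510, 0.0870 and 0.106, in that order), and cacna1ia lay so near the threshold that it passed under 7 alternatives other than leaving out a library (adjusted p = 0.0326 to 0.0496). It was 2.89-fold lower with all libraries and 5.73-fold lower without treated replicate 2 (adjusted p = 0.0142).

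Accessory subunits of neuronal calcium channels included some of the largest falls among the members. The beta subunit gene cacnb4b had 212, 294 and 194 normalized counts in treated larvae, against 1972, 1720.0 and 1934 in control larvae, 8.05-fold lower (log2 fold change -3.02, SE 0.18, limma adjusted p = 2.67e-06). Its paralog cacnb4a did not pass the threshold (-1.05, SE 0.50, adjusted p = 0.0869), though its libraries did not overlap between the groups, and it passed without control replicate 3 (adjusted p = 0.0409). The alpha2delta gene cacna2d3, chosen for its size of change after its values were seen, had 35.9, 95.6 and 29.6 in treated larvae, against 938, 613 and 825 in control larvae. It was 14.8-fold lower, and 24.2-fold lower without treated replicate 2 (log2 fold change -4.03, SE 0.40, adjusted p = 3.26e-05). The row written CACNA2D3, outside the rule, had 6.73, 8.999 and 14.3 in treated and 44.1, 57.8 and 12.7 in control larvae (-1.65, adjusted p = 0.0358). The alpha2delta gene cacna2d2b fell 4.97-fold (-2.31, adjusted p = 5.35e-05), while cacna2d2a overlapped between the groups (0.38, adjusted p = 0.51).

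Most genes on a list of release-site genes and of calcium-binding regulators of calcium channels fell too, with a median of -2.75. Of 36 tested, 28 were lower (77.8%, against 34.3% of all tested genes), 3 higher (8.33%, against 35.0%) and 5 not called. The falls with the smallest p were the active zone scaffold gene pcloa (log2 fold change -3.84, limma adjusted p = 1.24e-06), the adhesion gene nrxn1a (-3.83, adjusted p = 1.28e-06) and the vesicle calcium sensor gene syt1a (-4.04, adjusted p = 1.81e-06). The 3 that rose were cast (2.12, adjusted p = 6.41e-06), cabp1a, a calcium-binding regulator of these channels (1.75, adjusted p = 0.0057), and syt2a, a calcium sensor (1.37, adjusted p = 0.03). The symbol cast belongs to calpastatin, a protease inhibitor, and stood on the list by its likeness to an active zone protein's name. Of the regulator genes, cabp4, cabp5a and cabp5b also stand on the photoreceptor and bipolar cell marker list, and cabp2b on the hair cell marker list. The gene cabp2a, described with the retina channel genes, is counted here too.

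Neuron markers as a whole list fell beside the neuron channel genes: 22 of 25 tested fell (88.0%, against 34.3% of all tested genes). None of these markers rose, and their median was -2.97. They took 0.112% ± 0.0285 of the reads of treated libraries and 0.907% ± 0.0392 of those of control libraries (SD, n = 3 each), and syt1b alone was at 0 in all libraries of a group, the control group. The part of neuron RNA content in the fall of the neuron channel genes was not tested. Of these markers, syt1a, syt1b, snap25a and snap25b also stand on the list of release-site genes.

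Most TARP genes, the gamma subunits of the neuron class, were lower in treated larvae. Of 10 tested, 8 fell (80.0%, against 34.3% of all tested genes) and 2 were not called. Their median was -3.52, beside 0.01 over all tested genes. TARPs carry AMPA receptors to the synapse and slow their closing, and in cerebellar granule cells the loss of the mouse gene Cacng2 abolishes that transport. The gene cacng8b had 94.2, 141 and 80.2 normalized counts in treated larvae, against 1174, 1239 and 1142 in control larvae, 11.3-fold lower (log2 fold change -3.52, SE 0.22, limma adjusted p = 2.9e-06). Its paralog cacng8a had 41.5, 102 and 36.3 in treated and 1029.7, 887 and 959.9 in control larvae. It was 16.0-fold lower, and 24.7-fold lower without treated replicate 2 (-4.13, SE 0.35, adjusted p = 1.35e-05). For both paralogs the control libraries lay close together, and treated replicate 2 was the highest of the treated libraries.

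The gene cacng3b had 70.6, 107 and 56.3 normalized counts in treated larvae, against 1152, 800.0 and 974 in control larvae (log2 fold change -3.66, SE 0.26, limma adjusted p = 5.13e-06). The genes cacng2a and cacng2b, counterparts of the mouse gene named above, were 13.6-fold and 10.8-fold lower. In cacng5a, of the subgroup that acts on fewer AMPA receptor types, treated replicate 1 stood apart: its values were 84.1, 8.999 and 5.73 in treated larvae, against 372, 368 and 302 in control larvae. It was 10.5-fold lower with all libraries and 47.1-fold lower without treated replicate 1 (-4.28, SE 0.80, adjusted p = 0.00133), so its size rests on that library. The gene cacng7b was 11.8-fold lower (-3.51, adjusted p = 8.75e-06). Its paralog cacng7a was 2.63-fold lower, and 3.98-fold without treated replicate 2 (-1.52, adjusted p = 0.0306), and its call was lost without treated replicate 1 or 3 or control replicate 2 or 3 (adjusted p = 0.0536, 0.0582, 0.0814 and 0.103, in that order). The genes cacng4a and cacng4b overlapped between the groups and did not pass the threshold.

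A further list held AMPA receptor genes, genes of their other auxiliary subunits and the synaptic scaffold genes dlg4a and dlg4b. Most of these genes also fell, with a median of -3.08. Of 17 tested, 15 fell (88.2%, against 34.3% of all tested genes), none rose and 2 were not called. The falls with the smallest p were gria1a (log2 fold change -4.78, limma adjusted p = 9.96e-07), gria4a (-5.46, adjusted p = 1.28e-06) and gria2b (-4.46, adjusted p = 3.56e-06), all of which encode pore subunits.

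Gamma subunit genes stand side by side in the genome, and neighbours of different classes moved in opposite directions. In the RefSeq annotation of assembly GRCz12tu, which matched all 61 symbols and was used for gene order only, 13 members formed 5 runs of neighbouring members. In the run cacng6b, cacng8b and cacng7b, the muscle gene cacng6b rose and both TARP genes fell. In the paralogous run cacng6a, cacng8a and cacng7a, cacng6a rose and both others fell. In the run cacng5a, cacng1a and cacng4a, the muscle gene cacng1a rose, cacng5a fell and cacng4a was not called. In the run scn4ba and scn2b, scn4ba rose and scn2b was not called. The last run, cacng1b and cacng4b, held no gene that passed the threshold.

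**Figure D4:**
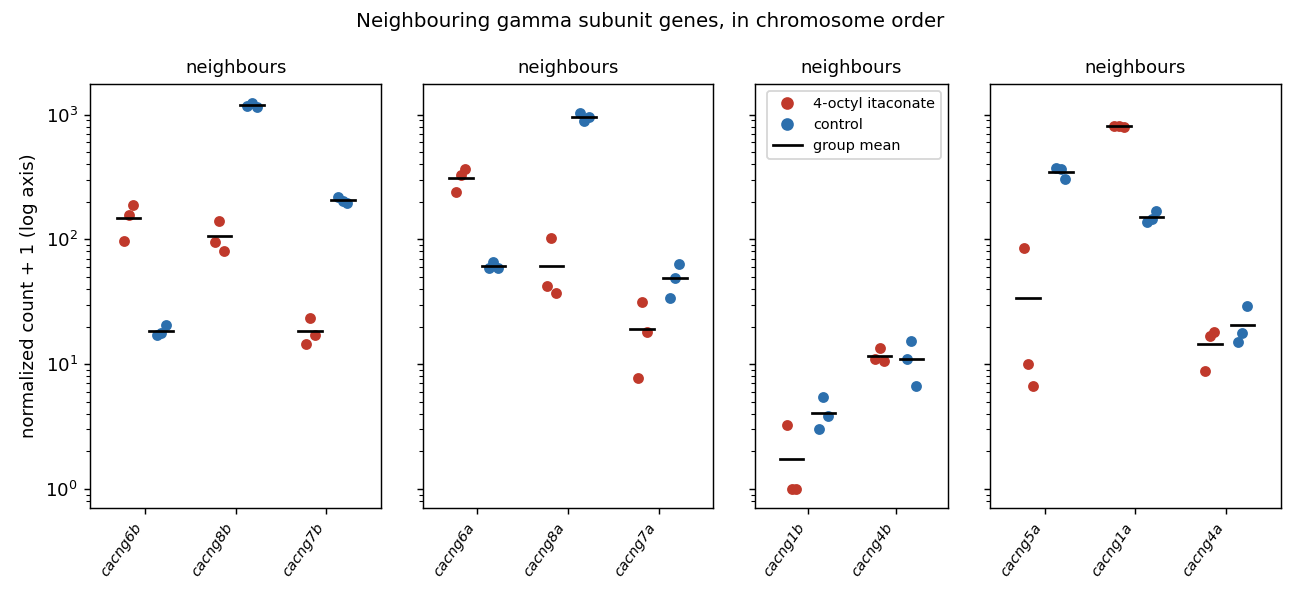
Normalized counts of neighbouring gamma subunit genes in each library, on a log axis of normalized count + 1, 1 panel per run in the gene order of the RefSeq annotation, with the 3 treated libraries left of the 3 control libraries and a line at each group mean. The treated libraries lie above the control libraries in cacng6b, cacng6a and cacng1a, and below them in the neighbours cacng8b, cacng7b, cacng8a, cacng7a and cacng5a.

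The retina subunit genes include the largest fall of all members. The gene cacna1fb (ENSDARG00000023683) is 1 of a pair of L-type alpha1 genes, with cacna1fa. Their mammalian counterpart drives glutamate release at photoreceptor and bipolar ribbon synapses. Which retinal cells use which paralog was not examined, and the values that follow are of cacna1fb. This gene had 60.5, 12.4 and 5.73 normalized counts in treated larvae, against 1488, 1191 and 695 in control larvae, and was 42.9-fold lower (log2 fold change -5.92, SE 0.70, limma adjusted p = 8.45e-05). It was 124-fold lower without treated replicate 1, so the size of the fall, but not its direction, depends on that library. Its paralog cacna1fa had 5.60, 8.999 and 26.7 in treated and 46.1, 21.1 and 28.2 in control larvae, with overlapping groups (-1.35, SE 0.59, adjusted p = 0.0679). It was 2.31-fold lower with all libraries and 4.36-fold lower without treated replicate 3 (adjusted p = 0.0145), and it also passed under total-count scaling (adjusted p = 0.0465) and quantile normalization (adjusted p = 0.0374).

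The alpha2delta subunit of the same synapses is encoded by cacna2d4a, which stands on 2 gene IDs, and cacna2d4b. The gene ID ENSDARG00000103810 of cacna2d4a had 24.7, 4.50 and 5.73 normalized counts in treated larvae, against 236, 192 and 182 in control larvae. It was 17.5-fold lower, and 39.7-fold without treated replicate 1 (log2 fold change -4.37, SE 0.55, limma adjusted p = 0.000119). The gene ID ENSDARG00000026855 had 19.1, 1.12 and 10.5 in treated and 61.2, 53.3 and 28.2 in control larvae (-2.55, SE 0.79, adjusted p = 0.0173). Its fold was 4.65, and 8.18 without treated replicate 1, and its adjusted p was 0.0645 without control replicate 1 and 0.0611 without control replicate 2. Summed over both IDs, a step added after the values were seen, cacna2d4a was 11.5-fold lower, and 22.95-fold without treated replicate 1 (-3.86, SE 0.59, adjusted p = 0.000416).

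In cacna2d4b the values were 123, 33.7 and 35.3 normalized counts in treated larvae, against 292, 383 and 168 in control larvae. The fall was 4.38-fold, and 8.14-fold without treated replicate 1 (log2 fold change -2.31, SE 0.51, limma adjusted p = 0.00325). For cacna1fb, cacna2d4b and both gene IDs of cacna2d4a, treated replicate 1 was the highest treated library, yet it lay below every control library.

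Photoreceptor and bipolar cell markers moved with the retina channel genes, and treated replicate 1 was again the highest treated library. Of 31 tested markers, 27 fell (87.1%, against 34.3% of all tested genes), none rose and 4 were not called, with a median of -2.68. Together they took 0.425%, 0.0910% and 0.150% of the reads in treated libraries, against 1.35%, 1.68% and 1.03% in control libraries, and none was at 0 in a whole group. Their part in the fall of the retina channel genes was not tested. The gene cabp2a, chosen after its values were seen, encodes a calcium-binding regulator of L-type channels and showed the same order of treated libraries, with 66.1, 1.12 and 3.82 normalized counts in treated larvae, against 872, 736 and 465 in control larvae (log2 fold change -6.24).

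The hair cell subunit gene cacna1da (ENSDARG00000102773) encodes the L-type alpha1 subunit of hair cell ribbon synapses, and zebrafish that lack it do not pass signals from hair cells to their nerves. It had 57.2, 60.7 and 30.5 normalized counts in treated larvae, against 395, 420.0 and 275 in control larvae. Every treated library lay far below every control library, a 7.34-fold fall (log2 fold change -2.89, SE 0.31, limma adjusted p = 4.62e-05). The gene is also active outside hair cells, in brain and endocrine tissue among others.

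**Figure D5:**
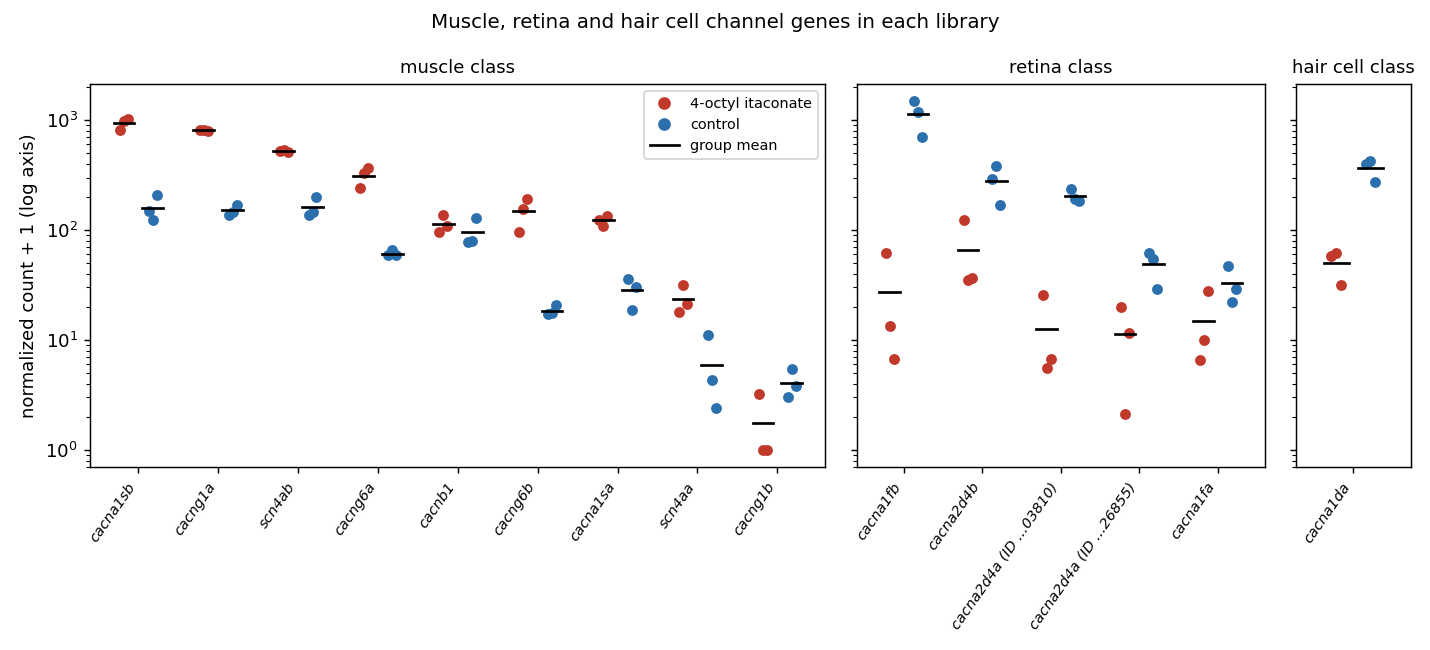
Normalized counts of every muscle, retina and hair cell channel gene ID in each library, on a log axis of normalized count + 1, with the 3 treated libraries left of the 3 control libraries and a line at each group mean. Muscle genes such as cacna1sb (809 to 1027 in treated, 123 to 206 in control) lie higher in treated larvae, cacnb1 overlaps, and cacna1fb and cacna1da lie lower in treated larvae.

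Of 22 tested hair cell markers, 9 rose, 5 fell and 8 were not called, with a median of 0.63. These are 40.9% and 22.7% of the list, against 35.0% and 34.3% of all tested genes, and shares this near the background are no result about hair cell markers. Together they took 0.0585% ± 0.00975 of the reads of treated libraries and 0.0314% ± 0.00262 of those of control libraries (SD, n = 3 each), with every treated library above every control library. Much of the treated sum came from pvalb8, pvalb9 and s100t. These averaged 4332, 2862 and 2028 normalized counts in treated larvae, against 438, 797 and 260 in control larvae. The marker with the highest control mean, atp2b1a, averaged 595 in treated and 2090 in control larvae. The sum therefore does not stand for the list as a whole. The part of the hair cell markers in the fall of cacna1da was not tested. The otoferlin gene otofa, whose product senses calcium for release at the hair cell synapse, fell, with 147, 83.2 and 129.8 normalized counts in treated larvae, against 1058, 1016 and 733 in control larvae. Its paralog otofb rose, with 481, 548 and 674 in treated larvae, against 37.1, 153 and 39.5 in control larvae. The other rises were gpx1b, s100t, pvalb8, s100s, myo6b, pvalb9, gfi1aa and slc17a8, and the other falls were atp2b1a, lhfpl5b, tmie and pou4f3. None of the matched markers was at 0 in a whole group. The genes otofa, otofb, pvalb8, pvalb9, s100t and atp2b1a were singled out after their values were seen.

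The paralog of cacna1da, cacna1db, stands on 4 gene IDs and belongs to the class of several tissues, with known use in the pacemaker cells of the heart, brain and endocrine cells of mammals. The gene ID ENSDARG00000115603 had 0, 1.12 and 1.91 normalized counts in treated larvae, against 41.1, 26.7 and 8.46 in control larvae (log2 fold change -3.60, SE 0.78, limma adjusted p = 0.00287). The gene ID ENSDARG00000101589 had 3.36, 7.87 and 1.91 in treated larvae, against 72.2, 49.9993 and 29.6 in control larvae (-3.33, SE 0.56, adjusted p = 0.000739), 11.5-fold lower, and 19.2-fold without treated replicate 2. The third ID, ENSDARG00000110642, was below the filter, with 2.24, 2.25 and 2.86 in treated and 19.0, 7.78 and 5.64 in control larvae. In these 3 IDs every treated library lay below every control library.

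The gene ID ENSDARG00000075917 behaved differently, with 25.8, 10.1 and 39.1 normalized counts in treated and 43.1, 19.9997 and 18.3 in control larvae and overlapping groups (log2 fold change -0.19, SE 0.56, limma adjusted p = 0.769). The reference table of gene names gives that ID the symbol cfap74, a gene of motile cilia. It gives cacna1db for ENSDARG00000101589 and no symbol for ENSDARG00000110642 or ENSDARG00000115603. Summed over the other 3 IDs, a step added after the values were seen, cacna1db averaged 7.85 ± 3.00 in treated and 86.8 ± 44.4 in control larvae (SD, n = 3 each), 11.1-fold lower (-3.23, SE 0.48, adjusted p = 0.00035). Summed over all 4 IDs it was 3.47-fold lower (-1.70, SE 0.43, adjusted p = 0.00667).

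Subunits of the heart channel fell, apart from the alpha2delta subunit. The L-type alpha1 gene cacna1c, needed for the heartbeat, had 77.3, 111 and 59.2 normalized counts in treated larvae, against 251, 231 and 219.9 in control larvae, 2.83-fold lower (log2 fold change -1.54, SE 0.26, limma adjusted p = 0.000679). The beta subunit gene cacnb2b fell (-1.79, SE 0.48, adjusted p = 0.00884), and cacnb2a fell by 0.70 (SE 0.22, adjusted p = 0.0193), a call that was lost without treated replicate 3 or control replicate 1 or 2 (adjusted p = 0.0666, 0.0731 and 0.0626, in that order). The alpha2delta gene cacna2d1a, used in skeletal muscle, heart and neurons, rose 2.82-fold, with 271, 205 and 217 in treated larvae, against 61.2, 80.0 and 104 in control larvae (1.51, SE 0.25, adjusted p = 0.000649). The row written CACNA2D1, outside the rule, did not rise, with 2.24, 8.999 and 5.73 in treated and 10.03, 7.78 and 11.3 in control larvae. It was not tested, and its groups overlapped. Of 17 tested heart markers, 13 rose (76.5%, against 35.0% of all tested genes), 1 fell (5.88%, against 34.3%) and 3 were not called. Their median was 2.204, and the heart markers took 0.110% ± 0.0261 of the reads of treated libraries and 0.0118% ± 0.000626 of those of control libraries (SD, n = 3 each). Much of that sum came from a single gene ID of actc1a (ENSDARG00000042535), with 8088, 16504 and 19149.8 normalized counts in treated larvae, against 566, 458 and 562 in control larvae, while the other actc1a ID was the marker that fell (-7.70). The other rises were tnnc1b, gata4, nppb, cmlc1, myh6, nppa, tnni1b, tnnc1a, hand2, myl7, myh7 and tnnt2a. Their log2 fold changes ran from 3.86 for tnnc1b to 1.36 for tnnt2a. The genes nkx2.5, tbx5a and ryr2b were not called, and all 23 rows of the skeletal muscle marker list rose in the same libraries. Cardiac-type actin is also used by developing skeletal muscle, and the part of skeletal muscle RNA in the heart list was not tested. Both cacna1c and cacnb2a are also expressed in neurons, and the part of either tissue in their fall was not tested.

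The tested T-type genes of several tissues, cacna1ha and cacna1g, fell as well, while cacna1hb was below the filter and its groups overlapped. The gene cacna1ha had 93.0, 81.0 and 53.5 normalized counts in treated larvae, against 331, 273 and 238 in control larvae, 3.70-fold lower (log2 fold change -1.90, SE 0.26, limma adjusted p = 0.000198). The gene cacna1g had 57.2, 78.7 and 82.1 in treated larvae, against 273, 162 and 199 in control larvae, 2.91-fold lower (-1.51, SE 0.26, adjusted p = 0.000867). In both cacna1ha and cacna1g, the groups were well separated.

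A mixed list held genes linked to calcium channel regulation and genes of the sodium leak channel NALCN, a relative of these channels that sets the resting potential. Of 11 tested, 7 fell (63.6%, against 34.3% of all tested genes) and 1 rose (9.09%, against 35.0%). The other 3 were not called, and the median was -1.44. The falls with the smallest p were ppp3ca, a catalytic subunit of the phosphatase calcineurin (log2 fold change -3.50, limma adjusted p = 2.27e-06), nalcn itself (-3.92, adjusted p = 1.42e-05) and gem, a small GTPase that binds calcium channel beta subunits (-3.09, adjusted p = 5.59e-05). The rise was stac3 (2.35, adjusted p = 5.91e-05), an adaptor of the muscle calcium channel that also stands on the list of excitation-contraction coupling genes.

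Whether paralogs of a pair moved by different amounts was examined on their ratio within each library. With 3 libraries a group, the exact test used could not pass any pair at 0.05, so the ratios are described only. Of 30 pairs written, 21 had both genes tested, and in 9 of these the within-library log2 ratio of the paralogs did not overlap between the groups. The share over other paralog pairs of the genome was not computed. The ratio of scn8aa to scn8ab was 1.59 ± 0.20 in treated and 3.72 ± 0.32 in control larvae (SD, n = 3 each), a difference of -2.13. The ratio of cacna1fa to cacna1fb was -0.53 ± 2.63 in treated and -5.10 ± 0.60 in control larvae, a difference of 4.57. Differences in the same sense, toward the a paralog, were 5.22 for scn1laa over scn1lab, 2.69 for cacna2d2a over cacna2d2b, 1.99 for cacng7a over cacng7b and 1.97 for cacnb4a over cacnb4b. In these pairs the b paralog fell and the a paralog did not pass the threshold or, in cacng7a, fell less. The remaining differences were -1.55 for cacna2d4a over cacna2d4b, -0.62 for cacng6a over cacng6b and -0.37 for cacng2a over cacng2b. The exact two-sided permutation p was 0.1 for each of the 9, the smallest possible, and 0.233 after Benjamini-Hochberg adjustment over the 21 pairs. Since no pair could have reached 0.05, the test decides nothing about them.

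For the muscle alpha subunit pairs, the differences were 0.50 for scn4aa over scn4ab and -0.43 for cacna1sa over cacna1sb, both with overlapping groups. The ratio of cacna1da to cacna1db over its 4 IDs differed by -1.18 (exact permutation p = 0.2), and over the 3 IDs without ENSDARG00000075917, a step added after the values were seen, by 0.34 (p = 0.5 by the same exact permutation test). The difference between these paralogs thus turned in sign with the gene ID that the reference table of gene names calls cfap74.

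The 7 gene IDs below the filter were cacng1b, cacng3a, cacng5b, cacnb3a, cacnb3b, cacna1hb and 1 ID of cacna1db. In the 6 other than the cacna1db ID the groups overlapped, and no library of any of these 6 exceeded 16.0 normalized counts. A floor of 3 reads over a group corresponds to 1.07 normalized counts for treated larvae and 1.17 for controls, for counting error only. Differences in these 7 gene IDs were not tested.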

How the data were processed

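The deposited signal values were normalized counts per gene, that is gene counts divided by 1 factor per library, which the authors made on build GRCz11 with DESeq2, Salmon 1.9.0, STAR 2.7.10a, fastp 0.23.2 and bcl2fastq 2.20.0.422, per the submitters' processing notes. What each tool did, and how reads shared by paralogs or antisense genes were counted, is not stated there, so values of near-identical paralogs are uncertain. Messenger RNA was captured on beads before library preparation, per the labels' protocols. Whole reads were recovered from the steps of the values within 0.01 of a whole number.

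Genes with a mean of at least 10 went into limma 3.58.1 (R 4.3.3) on the log2(normalized count + 1) scale (two-sided, intensity trend, no covariate, Benjamini-Hochberg over 20352 genes, threshold 0.05), a scale that understates changes of low genes. Folds are ratios of group means. The fit was tried on simulated counts in which few genes changed, equally many up and down. That trial does not cover data in which most genes differ, as here. edgeR 4.0.16 and DESeq2 1.42.0 on recovered reads, and other pseudocounts, filters, scalings and left-out libraries, were alternatives. Values are not per length, so levels were not compared between genes.

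The members, classes and lists were chosen with earlier results of these data known. Values were printed for each library for sodium channel alpha genes and for the muscle, retina and hair cell classes. In the other classes this held for the 4 highest means and the 2 largest changes each way past the threshold. In lists up to 3 smallest p each way were named, and in the hair cell and heart marker lists every call was named. Library values of cacna1aa, cacna2d3, CACNA2D3, CACNA2D1, cacna2d1a, cacna1g, cabp2a, otofa and otofb were added after they were seen. Those of an actc1a gene ID and of the cacna1db gene IDs other than ENSDARG00000115603 were also printed outside this rule. Symbols were matched to RefSeq (GRCz12tu) for names and neighbours only. The plots were made in matplotlib 3.10.9 under Python 3.11.15.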

Additional observations from a re-analysis of the deposited data

How the results depend on the processing

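Over the alternatives, genes called numbered 11595 to 15269, channel genes higher 7 to 11 and channel genes lower 29 to 42, and edgeR and DESeq2 each gave 10 higher and 37 lower, as limma did. The count of neuron genes that rose was 0 and became 1, scn1laa, with no filter, upper-quartile scaling, the replicate block or array weights (the last chosen after seeing the data), and ranged from 0 to 1 with a library left out. Of the values of single genes under the alternatives, 974 kept their direction and side of the threshold, 25 passed it newly, 19 no longer passed and 6 turned in sign. Those that turned were not called: ENSDARG00000075917 of cacna1db was 0.11 under upper-quartile scaling and -0.60 to 0.33 with a library left out, cacng4b was -0.36 under quantile normalization and -0.17 to 0.44 with a library left out, and cacna2d2a was -0.15 under quantile normalization. The cause was not tested. Upper-quartile scaling moved the median of all genes to 0.33 from 0.01, and cacnb2a (adjusted p = 0.16), scn8ab (0.0709), cacng7a (0.0694) and cacna1ib (0.0668) then did not pass in limma. Newly past it were also cacnb4a (0.0225) and scn5lab (0.0385) under quantile normalization and cacnb4a (0.0463) in limma without trend. Relative to the upper-quartile median, no called member changed direction.

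Same-numbered libraries of the groups correlated in their deviations at -0.02, -0.06 and 0.05, so the numbers are not taken to pair the samples. With the replicate number as a block, 13679 genes were called, 11 channel genes higher and 39 lower. Low counts limit scn4aa, scn4bb, scn1laa, cacna1ia, cacna1fa, cacna2d2a, cacnb4a, cacng7a and the gene IDs of cacna1db, where a few reads set the size of a fold. Treated replicates 2 and 3 also held few reads of cacna1fb (12.4 and 5.73 normalized counts), cacng5a (8.999 and 5.73) and both gene IDs of cacna2d4a. The sizes of their folds without treated replicate 1 rest on these few reads.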
